A study of Mus musculus with 48 samples.

Results

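Donor T cells taken on day 7 from recipients that had been given any iNKT cells were compared with donor T cells from untreated recipients, with both T cell types fitted together. The comparison used 24 of the 48 samples of the study, chosen by their labels alone: 18 libraries with iNKT1, iNKT2 or iNKT17 treatment and 6 untreated libraries. Each is a bulk RNA-seq library of conventional CD4 or CD8 T cells of FVB/N mice, recovered from spleen and peripheral lymph nodes on day 7 after transfer into major-mismatched Balb/C recipients, a mouse model of graft-versus-host disease (GvHD). Each cell type held 4 groups of 3 libraries (untreated, iNKT1, iNKT2 and iNKT17), and the untreated groups had GvHD without any iNKT product. The number of iNKT cells given and the conditioning and age of the recipients are not given in the sources used here. The labels do not say that libraries came from separate recipients, so the p-values reflect the spread among libraries alone, part or all of which may be technical. Titles name 2 experiments, with samples of both in every group. The numbered columns of counts could not be matched to the experiments, and the main fit holds no term for experiment. Titles list a CD4 and a CD8 sample under each experiment and numeral, and whether such a pair came from 1 recipient is not stated. If it did, the p-values over 24 libraries given below are too small. In bulk RNA, fewer cells of a type and less RNA per cell cannot be told apart.

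Invariant natural killer T (iNKT) cells recognise lipids bound to CD1d through a semi-invariant receptor and are known in mice for restraining GvHD. Their iNKT1, iNKT2 and iNKT17 subsets are named for making interferon-γ, interleukin-4 and interleukin-17. In GvHD, donor T cells that recognise recipient antigens divide, acquire cytokine and killing programs and enter gut, liver and skin. Such activated T cells also turn on inhibitory receptors, among them CTLA-4 and PD-1, and turn down the sphingosine-1-phosphate receptors that guide recirculation through lymph nodes.

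Library totals ran from 25323879 to 36661514 counts, with 17052 to 18902 genes detected, and 14613 of 35661 gene IDs passed the low-count filter. Defining markers followed the labelled cell types: Cd4 reached at most 0.886 CPM (CPM are counts scaled to a common library size) in CD8 libraries against 718 CPM or more in CD4 libraries, and Cd8a at most 2.50 CPM in CD4 libraries against 346 CPM or more in CD8 libraries. The first principal component of log2 CPM held 39.9% of the variance and separated CD4 from CD8 libraries. The third held 5.18% and separated treatment: the 6 untreated libraries scored 17.6 to 35.9 and the 18 treated libraries −22.9 to 11.3.

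Of the 14613 genes tested, 1324 passed an adjusted p of 0.05 (9.06%), 678 higher (4.64%) and 646 lower (4.42%) after iNKT treatment. Adjusted p-values below are those of the edgeR quasi-likelihood F test, adjusted over all genes tested by the Benjamini-Hochberg method, and "rose" and "fell" mark genes that passed it. The changes were mostly small, with a median size of 0.41 on the log2 scale among genes that passed and 127 genes past a 2-fold change. Over all genes tested the median log2 fold change was 0.0031. In 201 genes (1.38%) the treated and untreated libraries did not overlap in CD4 and again in CD8 cells, in the same direction: 98 genes (0.671%) were higher and 103 (0.705%) lower. Summing the CD4 and CD8 counts that share a treatment and column number, so that 9 treated samples met 3 untreated, left 245 genes past the threshold. In the fit over 24 libraries the count was 876 without untreated CD4 library 1 and 808 without untreated CD4 library 2.

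**Figure D1:**
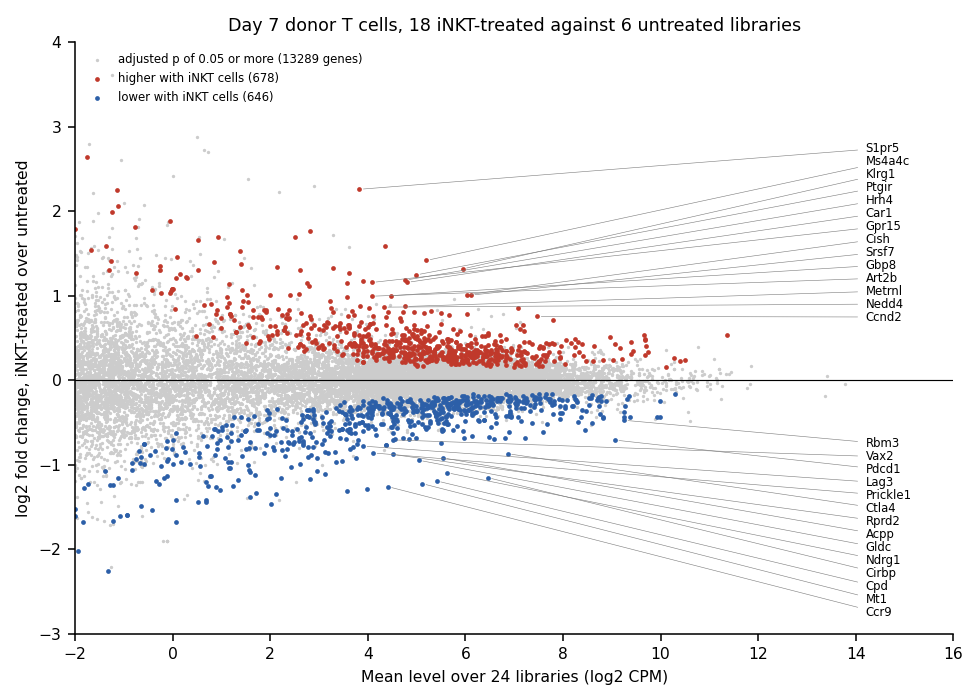
Each point is 1 of the genes tested, with its mean level over 24 libraries (log2 CPM) on the x axis and its log2 fold change, iNKT-treated over untreated, on the y axis. The axes leave out 497 genes, 11 of them past the threshold. The 678 genes that rose (red) and the 646 that fell (blue) lie mostly within 1 log2 unit of 0, and S1pr5 stands at 2.26 among the named genes.

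Among the better-expressed genes (mean of at least 4 on the log2 CPM scale) with the same sign in both cell types, the 12 that rose most ranged from 0.87 to 1.42 and the 12 that fell most from −0.70 to −1.26 on the log2 scale. Those that rose were Ms4a4c, the effector T cell receptor Klrg1, the prostacyclin receptor Ptgir, the histamine receptor Hrh4, the carbonic anhydrase Car1, the homing receptor Gpr15, the cytokine signalling inhibitor Cish, the splicing factor Srsf7, the interferon-induced GTPase Gbp8, the ADP-ribosyltransferase Art2b, the secreted protein gene Metrnl and the ubiquitin ligase Nedd4. Those that fell were the gut-homing receptor Ccr9, the zinc-binding metallothionein Mt1, the carboxypeptidase Cpd, the cold-inducible RNA-binding protein Cirbp, the stress-induced gene Ndrg1, the glycine cleavage enzyme Gldc, the acid phosphatase Acpp, Rprd2, the inhibitory receptors Ctla4 and Pdcd1, Prickle1 and Vax2. Of the 12 that rose, 3 had no overlap between treated and untreated libraries in either cell type, and of the 12 that fell, 6 had none. Over all genes tested the shares were 0.671% and 0.705%. The 24 genes were picked for large changes in these same libraries, so their separation is a description only. The calls of Ptgir, Car1 and Prickle1 depended on single libraries: Ptgir passed in 8 of 24 fits that each left out 1 library, and Car1 and Prickle1 missed the threshold without the second untreated CD4 library (adjusted p = 0.055 and 0.0632).

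Several inhibitory receptor genes fell after iNKT treatment. Of 20 genes on the list of inhibitory receptors and exhaustion factors, 7 fell (35%), 1 rose (5%) and 12 did not pass. Over all genes tested 4.42% fell and 4.64% rose. The list's median log2 fold change was −0.36, with −0.42 in CD4 and −0.11 in CD8 cells fitted alone. Ctla4, the CD28-family receptor that competes for CD80 and CD86, measured 218, 231 and 190.2 CPM in untreated CD4 libraries and 105 to 141 CPM (median 113) in treated ones. In CD8 libraries it measured 153, 127 and 138 CPM untreated and 59.7 to 100.4 CPM (median 72.9) treated. Every treated library lay below every untreated library of its cell type, and the fold change was −0.87 ± 0.08 (log2 ± SE, adjusted p = 3.9e-07). The change in Ctla4 passed in each cell type alone, at −0.83 ± 0.10 in CD4 (adjusted p = 0.00554) and −0.90 ± 0.12 in CD8 cells (adjusted p = 0.00529).

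Pdcd1, which encodes PD-1, measured 620.2, 595 and 384 CPM in untreated and 177 to 447 CPM (median 269.5) in treated CD4 libraries. CD8 cells held more Pdcd1, with 905, 1053 and 869 CPM untreated and 501 to 759 CPM (median 687) treated. The CD8 groups did not overlap, while the highest treated CD4 libraries lay above the lowest untreated one (−0.71 ± 0.15, adjusted p = 0.00275). For Lag3, a receptor for MHC class II, untreated CD4 libraries sat at 10.5, 10.5 and 10.5 CPM and treated ones at 3.09 to 6.48 CPM (median 4.41), without overlap. Its CD8 libraries did overlap, at 23.5, 35.5 and 26.1 CPM against 17.7 to 28.3 CPM (median 21.1) (−0.78 ± 0.15, adjusted p = 0.00138). The transcription factor genes Tox (−0.48 ± 0.11, adjusted p = 0.00748) and Prdm1 (−0.52 ± 0.10, adjusted p = 0.00146), both known for roles in exhausted and effector cells, fell as well. Treated and untreated Tox libraries did not overlap in either cell type. Tox2 (−0.70) and the galectin Lgals3 (−0.43) also fell, with Tox2 passing in 6 of 24 fits that left out 1 library and Lgals3 in 20 (it missed the threshold without untreated CD4 library 1, 2 or 3 or untreated CD8 library 1, adjusted p 0.0529 to 0.104). The exception in direction was Nr4a1, an immediate early gene of antigen receptor signalling, which rose (0.59 ± 0.15, adjusted p = 0.0117). With the summed counts, 2 members of the list passed, Ctla4 and Pdcd1, both lower.

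**Figure D2:**
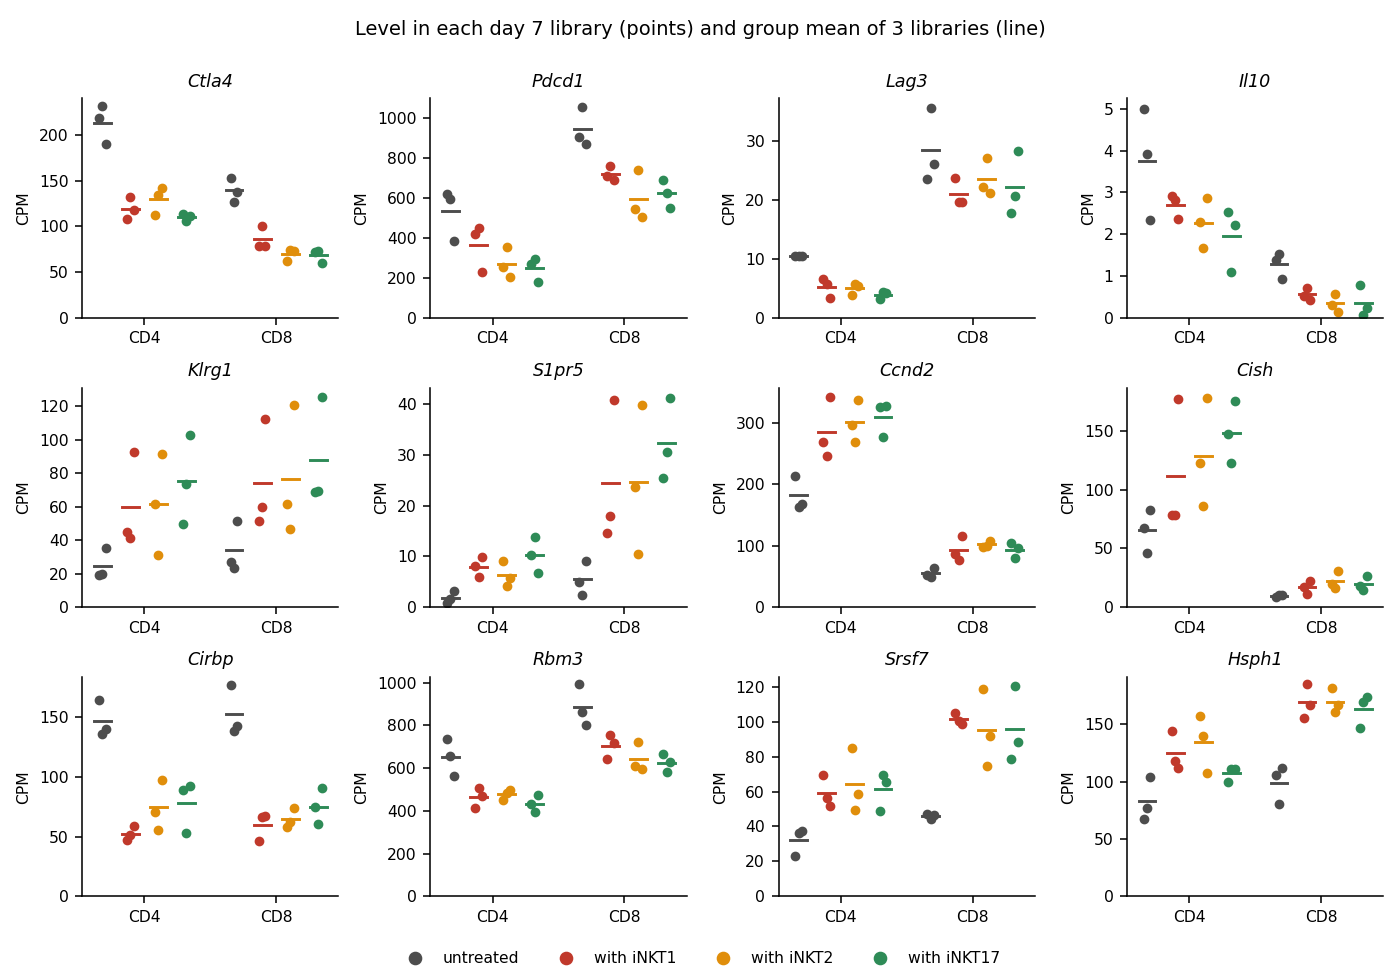
Each panel shows 1 gene, with its level (CPM) in each of the 24 libraries as points, grouped by cell type and treatment, and lines at the mean of 3 libraries. Ctla4, Cirbp and Rbm3 are below, and Srsf7 and Ccnd2 above, the untreated libraries in every treated library of both cell types.

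Several cytokine and helper genes fell. Of 12 type 17 program genes 3 fell (25%, against 4.42% of all genes tested) and none rose. Below 0 were 11 of the 12 fold changes (median −0.33). The 3 that fell were the chemokine receptor Ccr6 (−1.44 ± 0.40), the IL-1 receptor Il1r1 (−1.06 ± 0.30) and the cytokine Il21 (−0.92 ± 0.24). Their adjusted p was 0.0234, 0.0269 and 0.0171. All 3 missed the threshold without untreated CD4 library 2 (adjusted p 0.0978, 0.0978 and 0.0702) or untreated CD8 library 2 (0.0604, 0.0727 and 0.0828). Il1r1 also missed it without untreated CD4 library 1 (0.0697), and Il21 without untreated CD8 library 1 (0.0523). Ccr6 was scarce, with means of 2.76 CPM in untreated and 0.83 CPM in treated CD4 libraries and 2.41 against 1.10 CPM in CD8 libraries. Il17a had 0 counts in all 24 libraries. With the summed counts none of the 12 passed. Of 14 follicular helper genes 5 fell (35.7%, against 4.42% of all genes tested) and none rose (median −0.18), and 1 fell with the summed counts. The 5 were Il21, Pdcd1, Tox2, the costimulatory receptor Icos (−0.36 ± 0.08) and the transcriptional coactivator Pou2af1 (−0.72 ± 0.23), which passed in 10 of 24 fits that left out 1 library (adjusted p 0.0501 to 0.182 in the others). Of 12 type 2 program genes only Il10, an anti-inflammatory cytokine, passed, and it fell (8.33% of the list, against 4.42% of all genes tested). Il10 was scarce, at 5.00, 3.92 and 2.33 CPM in untreated and 1.09 to 2.91 CPM (median 2.36) in treated CD4 libraries and 1.39, 1.52 and 0.917 against 0.0627 to 0.784 CPM (median 0.435) in CD8 libraries (−1.14 ± 0.29, adjusted p = 0.0127). Its CD8 groups did not overlap.

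Of 20 type 1 effector genes, 2 rose and 2 fell (10% each, against 4.64% and 4.42% of all genes tested), with a median of 0.0070. Tbx21, which encodes T-bet, rose (0.38 ± 0.08, adjusted p = 0.00339), at 366, 394 and 445 CPM in untreated and 421 to 604 CPM (median 454) in treated CD4 libraries, which overlapped, and 512, 499 and 551 against 634 to 865 CPM (median 758) in CD8 libraries, which did not. The IL-18 receptor chain Il18r1 fell by 0.68 on the log2 scale (adjusted p = 0.00972). The chemokine Ccl3 fell by 0.50 and passed in 7 of 24 fits that left out 1 library. Interferon-γ itself (Ifng) did not pass (0.14 ± 0.15, adjusted p = 0.629), with 58.0, 61.9 and 75.0 CPM in untreated and 58.2 to 125 CPM (median 64.2) in treated CD8 libraries. Foxp3, the regulatory T cell factor, stood at 10.9, 10.2 and 9.09 CPM in untreated and 8.20 to 26.6 CPM (median 10.7) in treated CD4 libraries and did not pass (adjusted p = 0.863). Among 21 cytokine ligands 2 rose and 2 fell (9.52% each), and none of the 21 passed with the summed counts. The 2 that rose were the lymphotoxin genes Lta (0.62 ± 0.13, adjusted p = 0.00274) and Ltb (0.34 ± 0.10, adjusted p = 0.037). Ltb passed in 17 of 24 fits that left out 1 library, and missed the threshold without untreated CD4 library 1, 2 or 3, untreated CD8 library 1 or 2, or iNKT17 library 2 of either cell type (adjusted p 0.0505 to 0.127).

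Some genes of quiescent and less differentiated cells rose. Of 20 naive, quiescence and memory genes 4 rose (20%) and 1 fell (5%), against 4.64% and 4.42% of all genes tested (median 0.21). Only 1 of the 20 passed with the summed counts, and it was higher. The repressor Bach2 (0.63 ± 0.19) and the antiproliferative genes Btg1 (0.26 ± 0.07) and Btg2 (0.41 ± 0.07) rose, and Btg2 was higher in every treated library than in any untreated library of its cell type. Il7r, the IL-7 receptor chain of naive and memory cells, moved the other way, from 704, 537 and 633 CPM to 353 to 614 CPM (median 451) in CD4 and from 319, 224 and 284 CPM to 120.2 to 279 CPM (median 150.3) in CD8 libraries (−0.58 ± 0.13, adjusted p = 0.00641). Tcf7, which encodes the memory factor TCF-1, did not pass (0.34 ± 0.16, adjusted p = 0.191). Bach2 and Btg1 missed the threshold without untreated CD4 library 2 (adjusted p 0.0926 and 0.0997) or 3 (0.0591 and 0.0587) or untreated CD8 library 2 (0.104 and 0.0868), and Bach2 also without untreated CD8 library 1 (0.0827).

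Of 30 chemokine receptor, integrin and homing genes 4 rose (13.3%) and 2 fell (6.67%), against 4.64% and 4.42% of all genes tested. This list included the largest change among the genes named. S1pr5, a sphingosine-1-phosphate receptor of NK and effector T cells, measured 0.706, 1.60 and 3.12 CPM in untreated and 4.24 to 13.9 CPM (median 8.00) in treated CD4 libraries. CD8 libraries held 4.89, 2.40 and 9.13 CPM untreated and 10.4 to 41.2 CPM (median 25.5) treated. No treated library overlapped the untreated ones of its cell type (2.26 ± 0.34, adjusted p = 0.000162, 4.80-fold). Gpr15, which guides T cells to the colon, rose by 1.16 ± 0.24 (adjusted p = 0.00262), and CD8 libraries moved from 0.582, 0.485 and 0.535 CPM to 1.17 to 2.76 CPM (median 1.57) without overlap. Ccr9, which guides T cells to the small intestine, went the other way, from 44.4, 50.3 and 80.2 CPM to 16.3 to 35.1 CPM (median 20.5) in CD4 libraries, without overlap, and from 12.3, 27.1 and 13.6 CPM to 2.72 to 13.8 CPM (median 6.88) in CD8 libraries (−1.26 ± 0.23, adjusted p = 0.00131). The integrin chain Itgb1 rose (0.54 ± 0.11, adjusted p = 0.0034), with overlap between treated and untreated libraries in both cell types.

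Feedback inhibitors of cytokine receptors and D-type cyclins rose together with few other cycle genes. Of 26 cytokine receptor and feedback genes 3 rose (11.5%) and 2 fell (7.69%), against 4.64% and 4.42% of all genes tested. None of the 26 passed with the summed counts. Cish, a STAT5-induced inhibitor of cytokine signalling, measured 67.5, 45.7 and 82.8 CPM in untreated and 78.4 to 178 CPM (median 123) in treated CD4 libraries and 8.38, 10.1 and 10.2 against 11.1 to 30.8 CPM (median 18.3) in CD8 libraries, the latter without overlap (1.01 ± 0.20, adjusted p = 0.00246). Its relative Socs1 rose by 0.54 ± 0.15 (adjusted p = 0.0185) but missed the threshold without untreated CD4 library 2 (adjusted p = 0.0682) or untreated CD8 library 2 (0.0561). Of 46 cell cycle genes 4 rose (8.7%) and 1 fell (2.17%), with a median of −0.047. The list's median was −0.18 in CD4 and 0.16 in CD8 cells fitted alone. Of the 46, 3 rose and none fell with the summed counts. Ccnd2, a cyclin of G1 phase, went from 214, 164 and 168 CPM to 246 to 343 CPM (median 297) in CD4 and from 52.2, 48.9 and 64.4 CPM to 77.5 to 115 CPM (median 98.1) in CD8 libraries. The groups were apart in both cell types (0.76 ± 0.09, adjusted p = 1.8e-05). Ccnd3 followed the same pattern (0.51 ± 0.07, adjusted p = 0.000111), Ccne2 (0.47, adjusted p = 0.0509 without untreated CD8 library 2) and Cdc6 (0.41) rose, the latter not without untreated CD4 library 1 or untreated CD8 library 1, 2 or 3 (adjusted p 0.0551 to 0.0969), and the mitotic phosphatase Cdc25c fell (−0.65 ± 0.13, adjusted p = 0.00246). Fitted alone, Ccne2 and Cdc6 passed in CD8 cells only (0.69 and 0.61, adjusted p = 0.0381 and 0.0443). Their CD4 changes were 0.27 and 0.21. Cdc25c passed in CD4 cells only (−0.98, adjusted p = 0.0227), with −0.30 in CD8 cells. Mki67, a marker of cycling cells, did not pass (−0.35 ± 0.22, adjusted p = 0.364). Mki67 measured 110.5, 204 and 90.4 CPM in untreated and 82.4 to 173 CPM (median 111) in treated CD8 libraries.

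Cytotoxicity genes were split in direction. Of 19 tested, 5 fell (26.3%) and 3 rose (15.8%), against 4.42% and 4.64% of all genes tested (median −0.12). Only 1 of the 19 passed with the summed counts, and it was higher. Perforin (Prf1) fell in the fit of both cell types together (−0.50 ± 0.15, adjusted p = 0.0333), but only its CD4 groups were apart. CD4 libraries moved from 137, 172 and 179 CPM to 56.1 to 113 CPM (median 81.4) without overlap. CD8 libraries overlapped, at 679, 639 and 741 CPM untreated and 585 to 916 CPM (median 599) treated. Leaving out any 1 of the untreated CD4 libraries ended the Prf1 call (adjusted p 0.0712 to 0.122). Prf1 also did not pass with the summed counts (−0.18, adjusted p = 0.522). Granzyme B (Gzmb) did not pass (−0.48 ± 0.16, adjusted p = 0.0623), at 656, 661 and 507 CPM in untreated and 176 to 517 CPM (median 329) in treated CD4 libraries. Gzmf, a low-level granzyme, fell (−1.34 ± 0.28, adjusted p = 0.00329), as did the granule proteoglycan gene Srgn (−0.24) and the granzyme inhibitors Serpinb9 (−0.38) and Serpinb6b (−0.28). The Serpinb6b call was lost without untreated CD4 library 1 or 2 or untreated CD8 library 2 (adjusted p 0.0594 to 0.119), and Srgn and Serpinb9 passed in 14 and 12 of 24 fits that left out 1 library (highest adjusted p 0.165 and 0.192). Granzyme M (Gzmm) rose without overlap in either cell type, from 7.85, 7.35 and 9.39 CPM to 10.2 to 15.5 CPM (median 14.3) in CD4 and from 9.41, 7.77 and 9.43 CPM to 12.4 to 28.0 CPM (median 19.9) in CD8 libraries (0.89 ± 0.15, adjusted p = 0.00052). Gzmk rose from a low level (0.71 ± 0.22, adjusted p = 0.0438) and passed in 9 of 24 such fits (highest adjusted p 0.132). Klrg1, a lectin-like receptor of effector cells, went from 18.9, 19.8 and 35.1 CPM to 31.2 to 103 CPM (median 61.6) in CD4 and from 26.9, 23.3 and 51.6 CPM to 46.4 to 126 CPM (median 68.5) in CD8 libraries, with overlap in both (1.32 ± 0.27, adjusted p = 0.00256). How reads shared between granzyme genes or between Serpinb genes were assigned is not given in the sources used here, so values of these families carry that uncertainty.

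Interferon response genes that changed all rose. Of 55 tested, 13 rose (23.6%, against 4.64% of all genes tested), none fell and 42 did not pass. Above 0 were 48 of the 55 fold changes (median 0.27). Those that rose included the antiviral 2′-5′ oligoadenylate synthetases Oas1a, Oas2, Oas3 and Oasl2, the ubiquitin-like modifier Isg15 with its protease Usp18, the GTPases Gbp2, Gbp4, Gbp8, Ifi47 and Iigp1, and the nucleic acid sensor Zbp1. Isg15 measured 16.5, 11.6 and 17.2 CPM in untreated and 17.7 to 26.7 CPM (median 20.8) in treated CD4 libraries and 8.57, 7.73 and 10.6 against 11.4 to 15.1 CPM (median 14.0) in CD8 libraries. Both pairs of groups were apart (0.54 ± 0.09, adjusted p = 0.000683). Among the 13 that rose, Iigp1 had the largest fold change (1.27 ± 0.29, adjusted p = 0.00617), at 6.50, 7.26 and 13.6 CPM in untreated and 8.30 to 44.4 CPM (median 17.7) in treated CD4 libraries. With the summed counts described above, no interferon gene passed. Of the 13, Oas2, Zbp1 and Oas3 passed in 8, 5 and 18 of 24 fits that left out 1 library (highest adjusted p 0.142, 0.119 and 0.102). Gbp4, Oasl2 and Usp18 missed the threshold without untreated CD4 library 1 or 2 or untreated CD8 library 2 (adjusted p 0.0529 to 0.07).

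Interferon-stimulated genes carry sites for IRF factors, and the promoter windows of 4 of them are shown because they hold the interferon response motif searched for, GAAANNGAA on either strand. Windows spanned 250 bases before to 50 bases after each gene's start (RefSeq, GRCm38.p6), overlapping matches were allowed, and capitals mark the matched bases. All stretches shown lie before the start site.
Isg15, chr4:156200846-156200926, minus strand: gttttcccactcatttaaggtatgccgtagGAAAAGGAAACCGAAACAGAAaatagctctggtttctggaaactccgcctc
Oas1a, chr5:120907526-120907575, minus strand: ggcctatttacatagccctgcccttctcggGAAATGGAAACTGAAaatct
Oas3, chr5:120777690-120777764, minus strand: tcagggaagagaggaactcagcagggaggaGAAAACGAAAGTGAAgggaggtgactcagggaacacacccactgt
Gbp2, chr3:142620575-142620643, plus strand: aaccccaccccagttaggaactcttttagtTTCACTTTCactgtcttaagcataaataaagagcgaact
The motif was present in 8.56% of 32851 windows of all genes. Counted by gene, with a match in any window, the share was 9.76% of 27025 genes, and the list shares that follow are also by gene. Of the interferon genes that rose, 6 had a window and 4 of these held the motif (66.7%), and of those that did not pass, 19 of 33 did (57.6%). Beside these sequences, Oas1a measured 56.5, 61.2 and 58.9 CPM in untreated and 62.7 to 97.2 CPM (median 81.3) in treated CD4 libraries (0.38 ± 0.09, adjusted p = 0.00661), Gbp2 131, 116 and 147 CPM and 150.0 to 193 CPM (median 159.5) (0.30 ± 0.07, adjusted p = 0.00761), and Oas3 rose by 0.58 ± 0.17 (adjusted p = 0.0369). The CD4 groups of Oas1a and Gbp2 did not overlap, while the CD8 groups of both genes did.

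RNA-binding and chaperone genes of the temperature and stress response changed in both directions, several without any overlap between libraries. Of 21 tested genes on the heat shock and cold-inducible list, 6 rose (28.6%) and 2 fell (9.52%), with a median of 0.12. Over all genes tested the shares were 4.64% and 4.42%. The list was set with earlier results of these data known and counts Srsf7 among the 6 that rose, so its shares are a description only. Cirbp, a cold-inducible RNA-binding protein, measured 164, 136 and 139.7 CPM in untreated and 47.3 to 97.2 CPM (median 58.6) in treated CD4 libraries, and 177, 138 and 143 against 45.9 to 90.3 CPM (median 66.6) in CD8 libraries. Its groups were well apart in both cell types (−1.15 ± 0.13, adjusted p = 9.71e-06). The related gene Rbm3 fell from 738, 659 and 562 CPM to 394 to 509 CPM (median 469) in CD4 and from 996, 861 and 803 CPM to 581 to 755 CPM (median 641) in CD8 libraries, again without overlap (−0.47 ± 0.07, adjusted p = 6.48e-05). Srsf7, a splicing factor, rose from 22.9, 36.4 and 37.5 CPM to 49.0 to 85.2 CPM (median 58.7) in CD4 and from 47.3, 44.1 and 46.3 CPM to 74.8 to 121 CPM (median 98.8) in CD8 libraries (1.01 ± 0.12, adjusted p = 1.8e-05). All 3 genes passed in each cell type alone.

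The chaperone genes Hsph1 (0.66 ± 0.10, adjusted p = 0.000112), Chordc1 (0.46 ± 0.06, adjusted p = 2.79e-05), Hspa8 (0.46 ± 0.09, adjusted p = 0.00175) and Dnaja1 (0.43 ± 0.10, adjusted p = 0.0059) rose, and so did their regulator Hsf1 (0.40 ± 0.10, adjusted p = 0.0138; 0.0507 and 0.0598 without untreated CD4 library 1 and 2). Hsph1 measured 105, 80.2 and 111 CPM in untreated and 147 to 185 CPM (median 167) in treated CD8 libraries without overlap, and 67.7, 76.9 and 104 against 99.7 to 157 CPM (median 112) in CD4 libraries with overlap. Windows upstream of Hsph1 and Dnaja1 are shown for the heat shock element searched for, GAANNTTC or TTCNNGAA, with the matched bases in capitals.
Hsph1, chr5:149636337-149636399, minus strand: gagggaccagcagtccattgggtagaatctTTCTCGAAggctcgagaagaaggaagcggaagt
Dnaja1, chr4:40722314-40722382, plus strand: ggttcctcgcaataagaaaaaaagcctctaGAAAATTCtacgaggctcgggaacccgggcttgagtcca
This motif was present in 15.1% of all windows and, counted by gene, in 17% of all genes. It was present in 3 of 4 windowed genes of the list that rose and in 5 of 10 that did not pass.

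Of 20 unfolded protein response genes 6 rose (30%) and 1 fell (5%), against 4.64% and 4.42% of all genes tested (median 0.23). Above 0 were 17 of the 20 fold changes. With the summed counts none of the 20 passed. The stress transcription factor Ddit3 (0.49 ± 0.11, adjusted p = 0.00364), the secreted protein Creld2 (0.45 ± 0.11, adjusted p = 0.0107), the splicing-activated factor Xbp1 (0.41 ± 0.13, adjusted p = 0.0406), the isomerase Pdia4 (0.40 ± 0.11, adjusted p = 0.0178), Manf (0.25) and the chaperone Calr (0.24) rose, and the degradation adaptor Sel1l fell (−0.22). Pdia4 missed the threshold without untreated CD4 library 1 or 2 or untreated CD8 library 2 (adjusted p 0.0504 to 0.07), and Calr without untreated CD4 library 2 (0.0546) or untreated CD8 library 1 (0.0729). Xbp1 and Manf passed in 14 and 5 of 24 fits that left out 1 library (highest adjusted p 0.12 and 0.102), and Sel1l missed the threshold without untreated CD4 library 2 or 3 or untreated CD8 library 3 (0.0512 to 0.121). Of 18 glycolysis genes 3 fell (16.7%, against 4.42% of all genes tested) and none rose. Below 0 were 13 of the 18 fold changes (median −0.13), and none of the 18 passed with the summed counts. The 3 that fell were Gapdh (−0.31), Tpi1 (−0.22) and the glucose transporter Slc2a1 (−0.22). Leaving out 1 untreated library ended the call of Gapdh (CD4 library 2, adjusted p 0.0506; CD8 library 2, 0.0692), Tpi1 (CD4 library 1 or 2 or CD8 library 2, 0.0915 to 0.119) and Slc2a1 (CD4 library 1, 0.0574). None of 29 oxidative phosphorylation genes passed (median −0.028). Of 13 mitochondrially encoded genes only mt-Nd1 passed, and it fell (−0.43), or 7.69% against 4.42% of all genes tested. It missed the threshold without untreated library 1 or 2 of either cell type (adjusted p 0.0747 to 0.102). All 13 fold changes were below 0 (median −0.35). That list's median was 0.055 with iNKT1, −0.64 with iNKT2 and −0.55 with iNKT17, against the same untreated libraries, and its summed level per library ran from 3313 to 6490.5 CPM untreated and from 2371 to 6024 CPM treated.

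**Figure D3:**
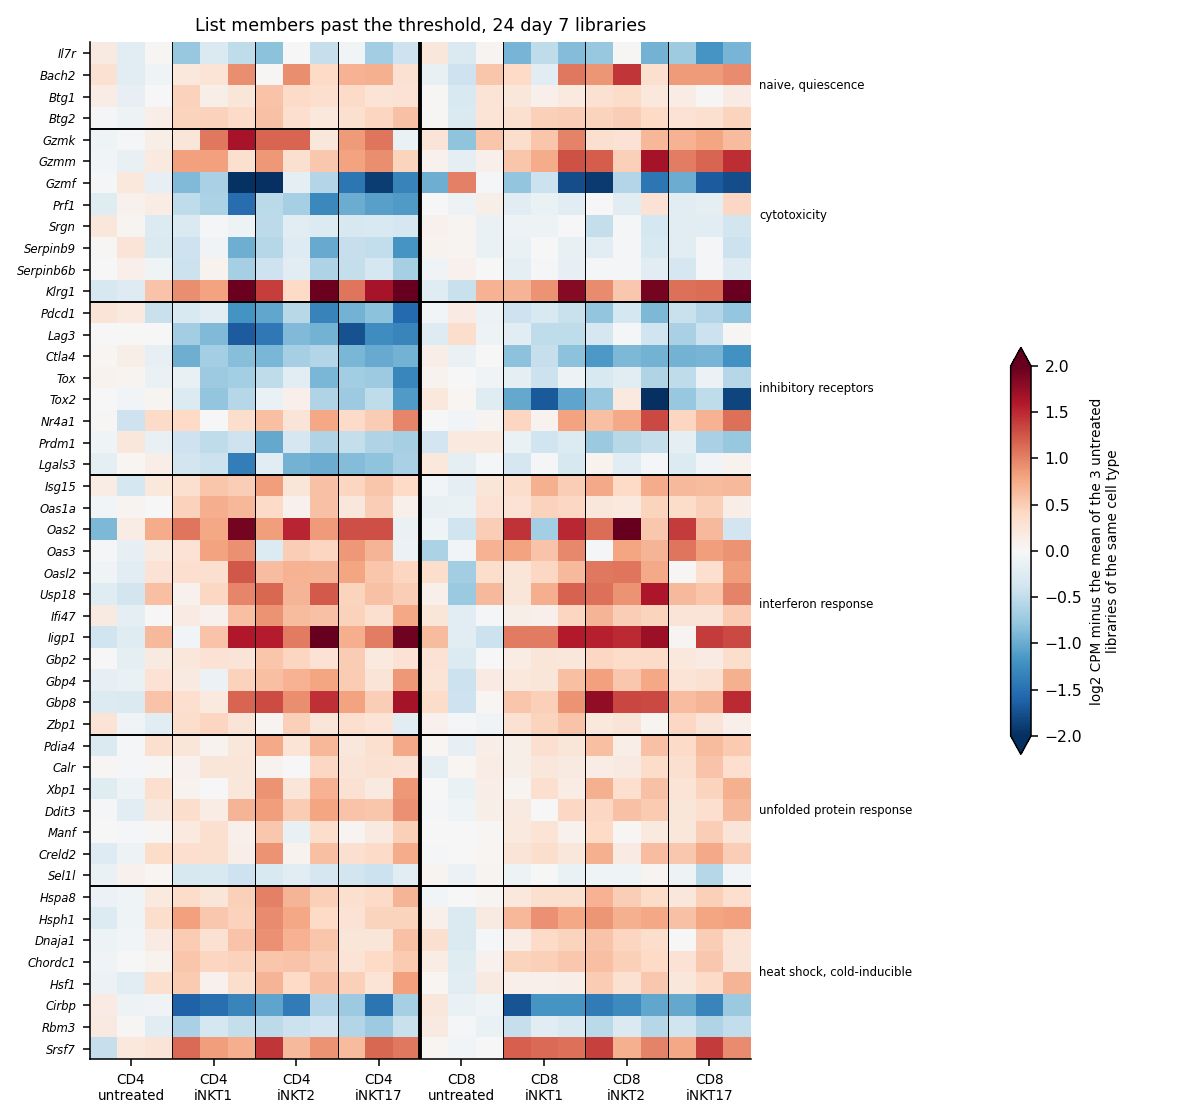
Rows are members of 6 gene lists that passed the test and columns the 24 libraries, with colour for the log2 CPM minus the mean of the 3 untreated libraries of the same cell type (scale cut at 2). Ctla4, Cirbp and Rbm3 are lower, and Srsf7, Isg15 and Gzmm higher, in every treated column than in the untreated columns of the same cell type.

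Among the remaining genes that moved most, Mt1 fell from 26.2, 28.8 and 21.8 CPM to 6.53 to 13.5 CPM (median 9.04) in CD4 and from 84.1, 98.5 and 80.1 CPM to 31.8 to 64.4 CPM (median 43.7) in CD8 libraries without overlap (−1.22 ± 0.13, adjusted p = 6.34e-06). Art2b rose without overlap, from 10.97, 14.0 and 12.5 CPM to 20.0 to 34.4 CPM (median 24.2) in CD4 and from 5.14, 6.22 and 8.52 CPM to 10.3 to 16.1 CPM (median 12.7) in CD8 libraries (1.00 ± 0.12, adjusted p = 1.97e-05). Ms4a4c rose from 17.7, 18.8 and 32.5 CPM to 39.2 to 74.3 CPM (median 58.0) in CD4 libraries, which did not overlap, and from 7.47, 6.07 and 16.7 CPM to 14.9 to 37.2 CPM (median 29.1) in CD8 libraries, which did (1.42 ± 0.21, adjusted p = 0.000137). Ndrg1 (−1.09 ± 0.19, adjusted p = 0.00056), Gldc (−0.95 ± 0.19, adjusted p = 0.00261) and the apoptosis gene Bbc3 (−0.60 ± 0.11, adjusted p = 0.0015) fell, Gldc without overlap in either cell type. Hrh4 and Ptgir were expressed mainly in CD4 libraries, with 25.4, 24.9 and 40.1 and 30.3, 23.3 and 42.7 CPM in untreated CD4 libraries and at most 2.27 and 4.87 CPM in CD8 libraries. Small but regular shifts were seen in Dynll1 (0.71 ± 0.09), Luc7l (0.44 ± 0.05), Elavl1 (0.39 ± 0.05) and Serpinb6a (−0.52 ± 0.06), a dynein light chain, a splicing factor, an RNA-stabilising protein and a protease inhibitor. These 4 were singled out after their values were seen, and each had no overlap in either cell type.

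**Figure D4:**
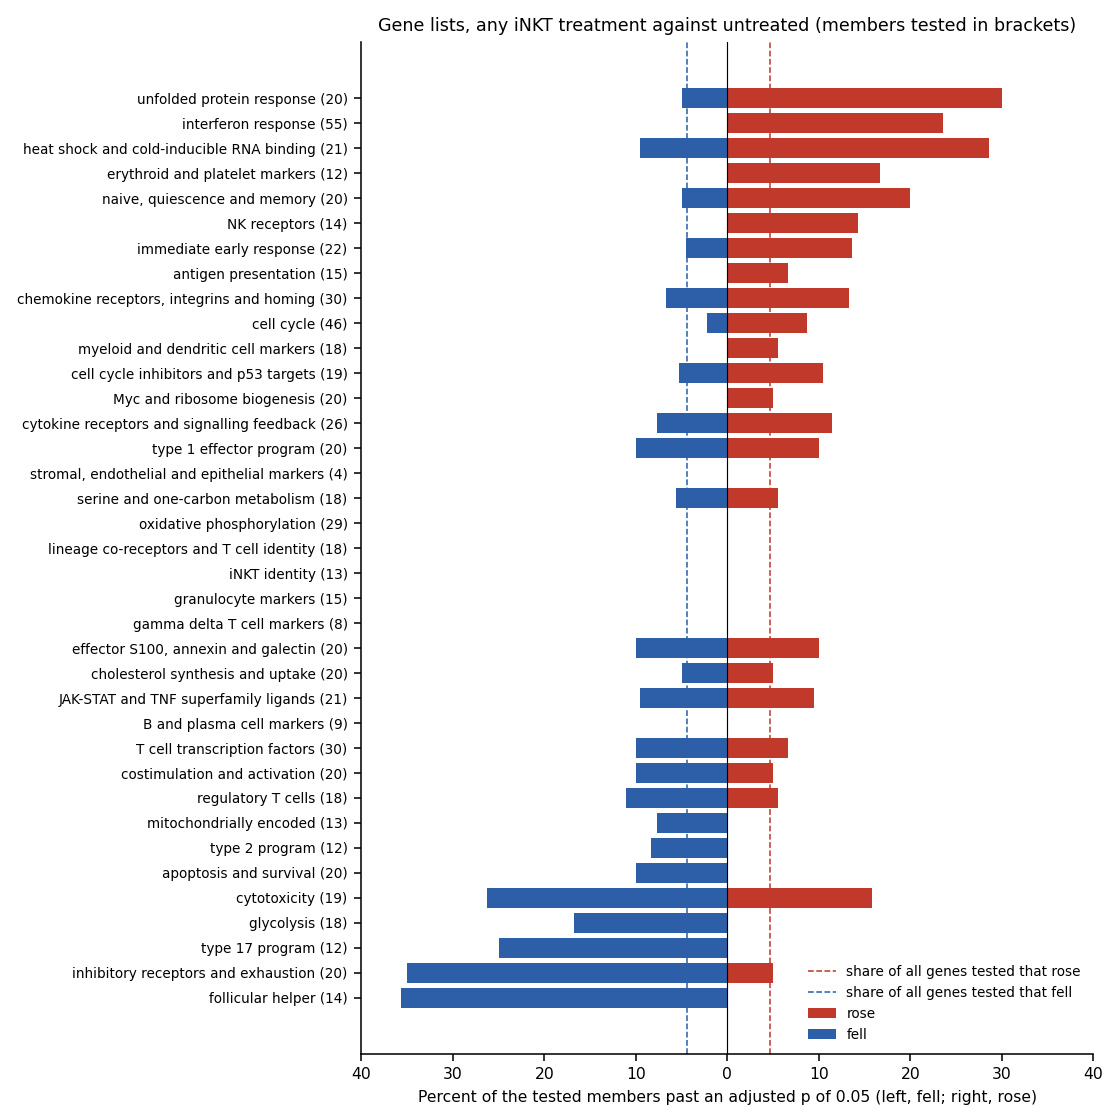
Bars give the percent of the tested members of each gene list that rose (right, red) or fell (left, blue), with the number of members tested in brackets and dashed lines at the shares of all genes tested (4.64% and 4.42%). Unfolded protein response, heat shock and interferon lists have the highest shares that rose, and follicular helper and inhibitory receptor lists the highest shares that fell.

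The effect was also fitted in each cell type alone, with no library shared between the fits. In CD4 cells 73 genes passed (0.5%), 28 higher and 45 lower, and in CD8 cells 122 (0.835%), 72 higher and 50 lower. Both counts rest on 3 untreated libraries: without the first, the second or the third untreated library, 0, 1 and 20 genes passed in CD4 cells and 6, 6 and 49 in CD8 cells. Leaving out a treated library also lowered them past 1.5 times in several fits, to 27 at the lowest in CD4 (without iNKT17 library 2) and 43 in CD8 cells (without iNKT17 library 2). Of the 73 CD4 genes, 72 had the same sign in CD8 cells and 60 (82.2%) also had an unadjusted p under 0.05 there, against 14.1% of all genes tested. Of the 122 CD8 genes, 118 had the same sign in CD4 cells and 100 (82%) an unadjusted p under 0.05 there, against 13.5% of all genes. Signs matched in 70.2% of all genes tested. There were 25 genes that passed in both, 34.2% of the CD4 and 20.5% of the CD8 genes. The cell types share no library, but they may share recipients and experiments, so these matches are given as a description.

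**Figure D5:**
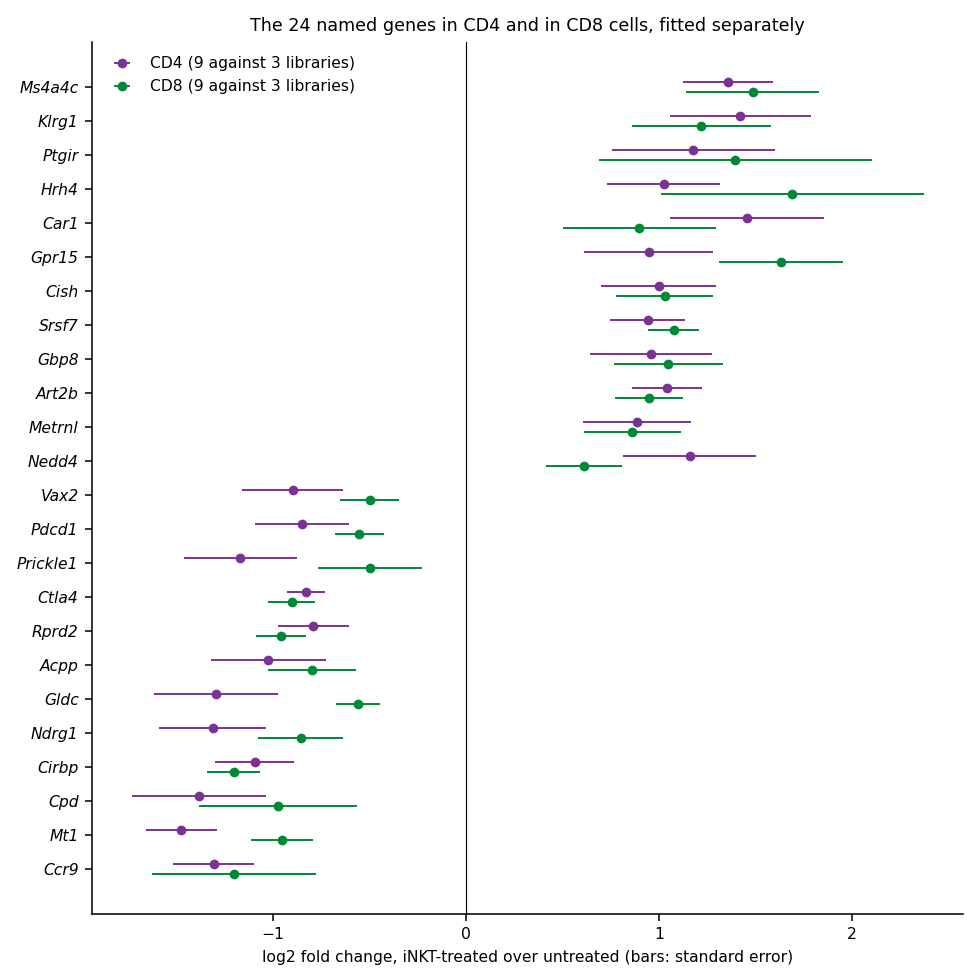
Points give the log2 fold change (iNKT-treated over untreated) of the 24 named genes in CD4 (purple) and CD8 (green) libraries fitted separately, 9 against 3 each, with bars for the standard error. All 24 have the same sign in both cell types, which the rule for naming them required.

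No gene passed the test of a difference between the CD8 and the CD4 effect, with 481 (3.29%) at an unadjusted p under 0.05, while DESeq2 called 1. Among the genes with the smallest unadjusted p were Tpbg, a membrane glycoprotein, Cd8b1 and Cd200r1, chosen after their values were seen. Tpbg changed by −0.87 ± 0.21 in CD4 and 0.62 ± 0.22 in CD8 cells (unadjusted p of the difference = 6.3e-05). The inhibitory receptor gene Cd200r1 changed by 0.63 ± 0.17 and −0.23 ± 0.14 (unadjusted p = 0.000283). Cd8b1, the co-receptor β chain, measured 1020.0, 945 and 935 CPM in untreated and 1119.7 to 1365 CPM (median 1207) in treated CD8 libraries, and Cd8a 399, 385 and 346 CPM against 446 to 602 CPM (median 513), both without overlap and both past the threshold in CD8 cells alone (adjusted p = 0.0419 and 0.032). In CD4 libraries Cd8b1 held only 5.17 to 9.77 CPM untreated and 3.87 to 6.53 CPM treated, with a change of −0.52 ± 0.20. The difference for Cd8b1 (unadjusted p = 0.000197) rests in part on that low level. For Lag3 and Prf1 the CD4 changes were −1.16 ± 0.20 and −0.90 ± 0.19 and the CD8 changes −0.36 ± 0.15 and −0.05 ± 0.13, with unadjusted p of the difference of 0.0046 and 0.00216 that did not pass after adjustment.

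No gene passed the test of a difference among iNKT1, iNKT2 and iNKT17, although 2187 (15%) had an unadjusted p under 0.05 and DESeq2 called 122. Against the same untreated libraries, 757 genes passed with iNKT1 (5.18%, with 2.05% higher and 3.13% lower), 1064 with iNKT2 (7.28%, with 4.42% higher and 2.86% lower) and 896 with iNKT17 (6.13%, with 3.5% higher and 2.63% lower). Single libraries moved these counts: iNKT1 gave 436 genes without its CD8 library 1 and 482 without its CD4 library 3, iNKT2 586 without untreated CD4 library 2 and 1632 without its CD4 library 2, and iNKT17 513 without untreated CD4 library 2. These comparisons share their controls, so their values are set side by side only. Ctla4 changed by −0.77, −0.85 and −0.99 with iNKT1, iNKT2 and iNKT17, Cirbp by −1.41, −1.11 and −0.97, Srsf7 by 1.01, 1.02 and 1.00 and S1pr5 by 2.16, 2.02 and 2.55. Ccnd2 changed by 0.70, 0.81 and 0.76 and Ccr9 by −1.20, −1.07 and −1.54. Pdcd1 changed by −0.47, −0.82 and −0.86, Gbp8 by 0.60, 1.33 and 0.99 and Gpr15 by 1.48, 0.79 and 1.10. The interferon list had medians of 0.18, 0.31 and 0.24, and the inhibitory receptor list −0.33, −0.27 and −0.40, in the same order. The pooled count fell to 866 with the iNKT17 libraries left out.

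Markers of other cells varied between libraries and partly with treatment. The 15 granulocyte markers summed to 152 to 350.4 CPM in untreated and 136 to 1257 CPM (median 609.5) in treated CD4 libraries, and to 188 to 693 against 203 to 788 CPM in CD8 libraries; none passed, with a median log2 fold change of 0.66. Erythroid and platelet markers summed to 12.1 to 21.0 CPM in untreated and 15.7 to 56.5 CPM in treated libraries. Of these markers 2 of 12 rose (16.7%, against 4.64% of all genes tested). The 2 were the carbonic anhydrase Car2 (1.17 ± 0.21, adjusted p = 0.00101) and the erythroid factor Klf1 (1.54 ± 0.39, adjusted p = 0.0138). Car1, which erythroid cells also express, measured 24.2, 9.96 and 5.25 CPM in untreated and 19.4 to 51.7 CPM (median 38.8) in treated CD4 libraries. Of 18 myeloid and dendritic cell markers 1 rose (5.56%, against 4.64% of all genes tested), Tyrobp (0.74 ± 0.20). Tyrobp missed the threshold without untreated CD4 library 1 or 2 (adjusted p 0.0519 and 0.0706). The markers' sum ran from 673 to 792 CPM untreated and from 627 to 979 CPM treated. Exocrine pancreas genes, a list added after the values were seen, summed to 20.9 to 64.5 CPM untreated and 8.94 to 28.2 CPM treated. All 16 were below 0, and 1, Cela1, fell past the threshold (−0.67), or 6.25% against 4.42% of all genes tested. The B cell marker Cd79a stayed at or under 0.938 CPM and Zbtb16, which encodes the iNKT factor PLZF, at or under 0.237 CPM in every library, and none of 13 iNKT identity genes passed. With the 6 libraries highest in granulocyte markers left out, 819 genes passed, and 820 without the 6 highest in basophil and mast cell markers, both settings added after the data were seen. Beyond these counts, the part of such markers in the results was not tested.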

How the data were processed

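Bulk RNA-seq of donor conventional T cells was deposited by the authors as a table of raw counts per Ensembl gene ID, and 24 day 7 columns of it were used. Per the labels' protocols, full-length cDNA (SMARTer v4) was made into Nextera XT libraries, which do not mark strand, and reads were 75 bp paired-end. Per the submitters' processing notes, STAR 2.5.4, kallisto and DESeq2 1.22.2 were among the tools and mm10 and GRCm38 the builds, and which tool made the count table is not given in the sources used here. Antisense and overlapping genes therefore may share reads.

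Of 35661 gene IDs, 98.2% had a symbol. Genes passing filterByExpr (minimum count of 10, 8 groups) were scaled by TMM and tested with edgeR 4.0.16 (R 4.3.3) robust quasi-likelihood F tests with cell type as a term and Benjamini-Hochberg adjustment at 0.05. CPM values use the TMM scaling, and SE is the log2 fold change divided by the square root of F. The fit was tested on simulated data. Alternatives used DESeq2 1.42.0 and limma 3.58.1. Libraries came from columns named by cell type, treatment and number, and the highest share of equal counts between 2 libraries was 2.65%. Day 0 columns entered 1 alternative fit only.

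The comparison, gene lists and rules were chosen with earlier results of these data known. Genes named were the 12 rising and 12 falling most among those past the threshold with a mean of at least 4 log2 CPM and 1 sign in both cell types, up to 4 members per list with the smallest p, and a fixed set of 20 T cell genes, of which 19 could be tested and 5 passed. Predicted, ribosomal, mitochondrial and receptor segment genes were left out of the first rule. Further list members past the threshold were named after their values were seen. Some genes of these sets are not reported here.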

Additional observations from a re-analysis of the deposited data

How the results depend on the processing

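With DESeq2, 1752 genes passed in the pooled comparison, without the low-count filter 965, with upper-quartile scaling 1369 and with day 0 libraries included 1008, all within 1.5 times of 1324. Larger moves came from limma's voom with quality weights (2014), limma with the shared treatment and number as a random block (690), summed counts of 9 against 3 (245), leaving out iNKT17 (866), leaving out column number 1 (610) or 2 (522) of the untreated libraries, and leaving out the 6 libraries highest in granulocyte (819) or basophil and mast cell markers (820), the last 2 settings chosen after seeing the data. DESeq2 called 597 genes in CD4, 572 in CD8, 1 for the difference between cell types, 122 among the 3 treatments, and 1206, 1787 and 1404 with iNKT1, iNKT2 and iNKT17. The causes were not tested.

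The column numbers did not meet the rule for pairing (every pair over 0.1) but did mark shared variation: 9 of 12 CD4 and CD8 pairs of 1 treatment and number had deviations correlated over 0.1 (−0.38 to 0.70, median 0.41, across 7778 genes), and 16 of 24 libraries were closest to their own number in the other cell type. All 8 libraries numbered 3 scored −26.3 to −10.6 on the fourth principal component, and no other library was below −2.67. Whether number 3 marks 1 of the 2 experiments in the titles is not stated. A replicate block by number gave 1570 genes in the pooled comparison, 146 in CD4, 90 in CD8, 0 for the difference between cell types, 42 among treatments (against 0 without the block), and 973, 1553 and 1256 with iNKT1, iNKT2 and iNKT17.

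Leaving out 1 library gave 808 to 1399 genes in the pooled comparison, 0 to 96 in CD4, 6 to 153 in CD8, 0 to 0 for both difference tests, 436 to 869 with iNKT1, 586 to 1632 with iNKT2 and 513 to 1055 with iNKT17. The lowest of these were without the second untreated CD4 library (pooled, iNKT2, iNKT17), the first untreated CD4 library (CD4), the first or second untreated CD8 library (CD8) and the first iNKT1 CD8 library (iNKT1), and the highest iNKT2 count was without the second iNKT2 CD4 library. Of 114 named genes past the threshold, including those chosen after their values were seen, 63 passed in every such fit, 71 with the random block and 27 with summed counts, and none changed sign in 42 settings.

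Sign changes were seen in 10 named genes that did not pass. With summed counts Cd4 was −0.012, Cd8b1 0.33, Foxp3 0.13 and Maf −0.067, and with the random block −0.027, 0.28, 0.085 and −0.053. Without untreated number 3, Cd8b1 was 0.058, Foxp3 0.049, Il2 −0.026, Il2ra 0.0016, Tmem176b 0.18 and Tnf −0.012. Without iNKT17, Cd4 was −0.0062 and Il2ra 0.038. With quality weights Cd8b1 was 0.21 and Maf −0.039, with 8 groups Il4 was −0.034, and without the basophil-high libraries Cd8b1 was 0.18 and Tpbg 0.015. Over the fits that left out 1 library, Cd4 ran from −0.0042 to 0.14, Cd8b1 from −0.16 to 0.11, Foxp3 from −0.23 to 0.12 and Il2ra from −0.087 to 0.033 (0.00063 without the third untreated CD8 library).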

Other observations

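The immediate early list, not described above, held 3 genes that rose (13.6%) and 1 that fell (4.55%) among 22 tested (median 0.18). Over all genes tested the shares were 4.64% and 4.42%, and 17 of the list's 22 fold changes were above 0. None of 8 γδ T cell markers passed (median −0.40), and their sum was 101 to 127 CPM in untreated and 72.4 to 115 CPM in treated CD4 libraries. Precision is limited by the 6 untreated libraries, which enter every value given, and by the unknown link between CD4 and CD8 libraries and recipients.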
